A study of Mus musculus with 12 samples.

Results

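The MYC network is a family of transcription factors that pair through a basic helix-loop-helix zipper and bind the E-box CACGTG. MYC, MYCN and MYCL activate genes of growth and proliferation as dimers with MAX, while MNT, the MXD proteins and MXI1 also pair with MAX and recruit SIN3 corepressor complexes to the same kind of site. MGA, another MAX partner, is part of a variant Polycomb complex. In the developing cortex MYCN is known for its role in the expansion of neural progenitors.

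The 10 genes described here, Myc, Mycn, Mycl, Max, Mnt, Mga, Mxd1, Mxd3, Mxd4 and Mxi1, were taken by gene symbol from a table of 53351 genes. All 10 were found and all 10 passed the filter on low values that left 20240 genes for testing. They were measured in wild-type primary neural progenitor cells from the cerebral cortex of mouse embryos at E13.5, cultured overnight with the growth factors bFGF and EGF. Treatment lasted 2 h, with DMSO, the solvent, or with Torin1 at 250 nM, which blocks the growth kinase mTOR. All cells, controls included, were given 100 ug/ml cycloheximide for 5 min before lysis, which holds ribosomes on their mRNAs. Of each lysate 10% was set aside as total mRNA, and polysome mRNA was pooled from the gradient fractions in which an mRNA carries more than 3 ribosomes. With 3 biological replicates each, the 4 groups (total DMSO, total Torin1, polysome DMSO, polysome Torin1) make 12 libraries. The labels do not say whether replicates came from separate litters or days, so p-values measure the spread between these samples. Total and polysome mRNA came from the same lysates, but the labels do not tie a replicate number to a lysate. The main tests therefore treat the 12 libraries as independent, also where the fractions are compared.

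The deposited values are scaled abundances, and how many reads lie behind them is unknown, so no counting interval is given. Each library's values summed to between 14341674 and 19201406. Values below are scaled abundances in ppm, a share of the mean column total, given for replicates 1, 2 and 3 in that order or as mean ± SD (n = 3). A fold is a difference of log2(scaled value + 1) with its standard error, where the 1 was added on the deposited scale and not in ppm. A gene passed the test at an adjusted p under 0.05 (limma, Benjamini-Hochberg over all genes tested). Levels are not compared between genes, since it is not known whether the values are per length. Values are relative within a library, so an overall loss of mRNA from polysomes was not measured, and in bulk samples fewer cells of a type and less RNA per cell cannot be told apart. Radial glia markers summed to between 3410 and 3510 ppm in total DMSO and between 3860 and 3960 ppm in total Torin1, with 0 of 8 at 0. Vim and Fabp7 made up most of this sum. The mean of Vim was 1130 ppm in total DMSO and 1690 ppm in total Torin1. Fabp7, at 2030 and 1850 ppm, was the only one of the 8 with a lower total mean with Torin1. Neuron markers were also present, at 2490 to 2530 ppm in total DMSO and 2640 to 2720 ppm in total Torin1, so the cultures were not of progenitors alone. The total Torin1 replicate 2 library stood apart in Rn7sk, a small nuclear RNA gene, with 2056 ppm against 38.5 to 182 ppm in the other total libraries.

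The promoters of the genes were read first. RefSeq windows (GRCm38.p6) were found for 9 of the 10 genes, 11 windows in all, and the 250 bases before each start site were searched on both strands. The motifs were the E-box CACGTG, which the network's own dimers bind, and the E2F motifs TTTCCCGC and TTTGGCGC, which are letters bound by cell cycle transcription factors. Motif and gene choices here were made after the expression values were seen, and a match is a description of the letters only. Of 32851 windows of the same length in the table, 6.02% held the E-box and 1.3% an E2F motif. The 2 windows printed are those of Mycn, which changed with Torin1 and has a window in the table, and of Mnt, the only antagonist whose total mRNA was higher in every Torin1 library than in every DMSO library. Capitals mark the motifs, and the strand is that of the gene.
Mycn promoter, chr12:12941837-12942086, minus strand: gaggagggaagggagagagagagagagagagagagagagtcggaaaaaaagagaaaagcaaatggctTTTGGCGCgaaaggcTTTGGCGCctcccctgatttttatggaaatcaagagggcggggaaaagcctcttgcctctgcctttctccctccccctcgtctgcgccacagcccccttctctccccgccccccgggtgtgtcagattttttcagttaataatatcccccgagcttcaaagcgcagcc
Mnt promoter, chr11:74830674-74830923, plus strand: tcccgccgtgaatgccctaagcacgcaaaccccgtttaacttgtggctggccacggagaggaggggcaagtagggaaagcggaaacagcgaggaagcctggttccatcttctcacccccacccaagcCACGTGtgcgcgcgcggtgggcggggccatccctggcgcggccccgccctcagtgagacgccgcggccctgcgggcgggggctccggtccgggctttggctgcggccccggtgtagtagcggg
The Mycn window held 2 E2F motifs that do not overlap, which begin 183 and 168 bases before the start site. The Mnt window held 1 E-box, which begins 123 bases before the start site, and the window of Mxd4 held 1 at 219 bases. A start site here is that of the window and can lie inside the span of the gene. The Mnt window ends at 74830923, while the span of Mnt begins at 74830806. The Mga window begins at 119896978, while the span of Mga begins at 119872503. The other 8 windows held neither motif.

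The first comparison asks which mRNAs of the network differed in amount once mTOR had been inhibited. In total mRNA 2 of the 10 genes passed the test, both of them activators and both higher, while 7.4% of all 20240 genes passed in either direction and 3.05% passed as higher. Myc and Mycn rose, by 1.77-fold and 1.52-fold. Mycl, Max and all 6 antagonists did not pass. The median log2 fold of the 10 genes was 0.09, beside -0.01 over all genes tested and -0.06 over the 9335 expressed genes, those with a mean log2 abundance of at least 3 in ppm. Among the expressed genes, to which all 10 belong, 11.8% passed.

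Myc, the founding member and the gene for c-MYC, lies on chromosome 15 from 61985341 to 61990361 (GRCm38). In total mRNA it was at 34.4, 31.5 and 30.1 ppm in the DMSO libraries and at 58.1, 53.2 and 58.9 ppm in the Torin1 libraries. Every Torin1 library was above every DMSO library, and the gap between the groups was wider than the spread within either. The means were 32.0 ± 2.23 and 56.8 ± 3.09 ppm, a log2 fold of 0.83 ± 0.08 (adjusted p = 0.000305, limma). Only 70 of the 9335 expressed genes had a fold as high or higher, Myc itself included. In polysome mRNA Myc was at 27.1, 30.4 and 28.7 ppm with DMSO and at 56.5, 55.6 and 48.1 ppm with Torin1. Here too the groups did not overlap, and the log2 fold was 0.89 ± 0.08 (adjusted p = 6.3e-05, limma). In order of level, polysome DMSO and total DMSO were lowest and overlapped, and polysome Torin1 and total Torin1 were highest and overlapped.

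Mycn, on chromosome 12 from 12936093 to 12941836, is the MYC gene most closely tied to neural progenitors. In total mRNA it was at 49.8, 52.5 and 50.5 ppm with DMSO and at 74.9, 78.6 and 79.5 ppm with Torin1. The groups were far apart, with means of 51.0 ± 1.39 and 77.7 ± 2.41 ppm and a log2 fold of 0.61 ± 0.08 (adjusted p = 0.000938, limma). In polysome mRNA it was at 47.8, 51.4 and 44.7 ppm with DMSO and at 81.0, 72.6 and 67.4 ppm with Torin1. All 3 Torin1 values were again above all 3 DMSO values, with a log2 fold of 0.62 ± 0.08 (adjusted p = 0.000407, limma). As for Myc, the total and polysome values of a treatment overlapped, so the 4 groups fell into a lower DMSO pair and a higher Torin1 pair.

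**Figure D1:**
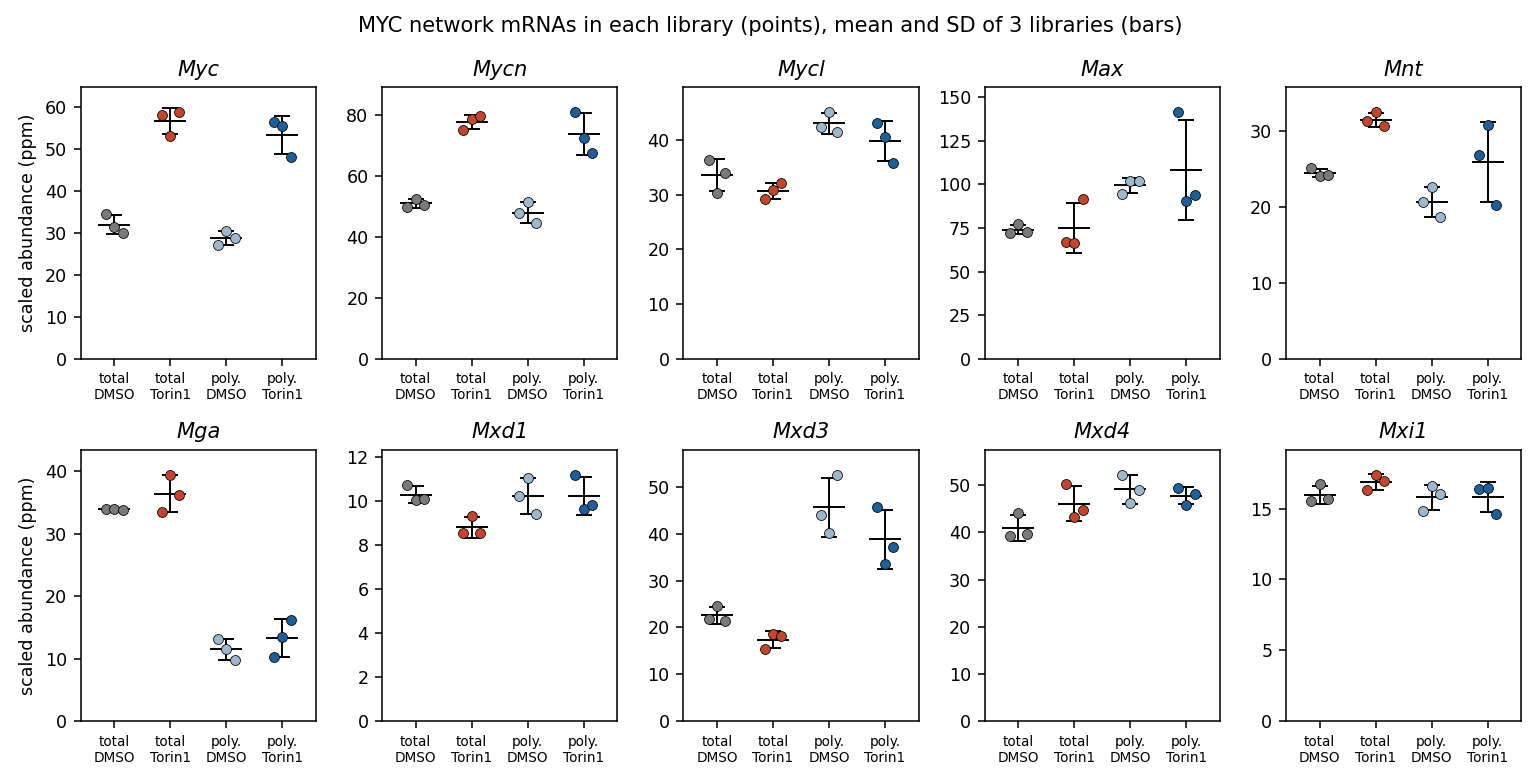
Scaled abundance (ppm, linear axes from 0, a separate scale for each gene) of the 10 genes in the 12 libraries. Points are libraries and bars the mean and SD of 3. Myc and Mycn are higher in both Torin1 groups than in both DMSO groups, Mga is lower and Mxd3 higher in polysome than in total mRNA, and Max has wide spread in the Torin1 groups.

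Mycl, the third activator, on chromosome 4 from 122995588 to 123002490, did not follow the other two. Its total mRNA was at 36.3, 30.4 and 34.1 ppm with DMSO and at 29.3, 30.8 and 32.2 ppm with Torin1. The groups overlapped, and the log2 fold was -0.12 ± 0.09 (adjusted p = 0.461, limma). In polysome mRNA the log2 fold was -0.12 ± 0.09 (adjusted p = 0.475, limma), with overlapping groups of 43.1 ± 1.89 and 39.8 ± 3.67 ppm.

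Ratios of 2 genes within a library do not depend on how libraries are scaled. The ratio of Myc to Mycl in total mRNA was 0.956 ± 0.0776 with DMSO and 1.85 ± 0.13 with Torin1. In polysome mRNA it was 0.668 ± 0.0278 and 1.34 ± 0.0305. The groups were separate in both fractions, with an exact two-sided permutation p = 0.1 in each, the smallest that 3 against 3 allows (adjusted p = 0.12 over 6 such ratios). The ratio of Myc to Mycn went from 0.629 ± 0.0539 to 0.732 ± 0.0499 in total mRNA, and these groups overlapped (exact permutation p = 0.2, adjusted p = 0.2). In polysome mRNA it went from 0.601 ± 0.0387 to 0.726 ± 0.0362, with groups that did not overlap (exact permutation p = 0.1, adjusted p = 0.12). The ratio of Myc to Mxd3 went from 1.42 ± 0.151 to 3.29 ± 0.46 in total mRNA and from 0.64 ± 0.107 to 1.4 ± 0.228 in polysome mRNA. Neither pair of groups overlapped (exact permutation p = 0.1, adjusted p = 0.12 in each). Every Torin1 library thus held more Myc relative to Mycl than every DMSO library, while relative to Mycn the total libraries overlapped. These ratios were chosen after the values were seen.

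Max, on chromosome 12 from 76937269 to 76962323, encodes the partner that all the dimers share. Its total mRNA was at 72.3, 77.2 and 72.9 ppm with DMSO and at 66.8, 66.5 and 91.7 ppm with Torin1. The DMSO values lay close together, while Torin1 replicate 3 was above and the others below them. The log2 fold was 0.00 ± 0.16 (adjusted p = 1, limma). In polysome mRNA Max was at 94.6, 102 and 102 ppm with DMSO and at 142, 90.3 and 93.7 ppm with Torin1. Here Torin1 replicate 1 was the high library, and the log2 fold was 0.10 ± 0.16 (adjusted p = 0.775, limma). Its standard error was the largest of the 10 genes, so a change of moderate size could not have been resolved.

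Among the antagonists 3 had total mRNA groups that did not overlap, but none of these passed the test. Over all genes tested 33.4% had total mRNA groups that did not overlap, so such a separation is common here. Mnt, on chromosome 11 from 74830806 to 74845725, encodes a broadly expressed MAX partner that represses. It was at 25.1, 24.1 and 24.2 ppm with DMSO and at 31.3, 32.5 and 30.6 ppm with Torin1. All Torin1 values were higher, with a log2 fold of 0.36 ± 0.13 (adjusted p = 0.12, limma). It passed in 2 of 16 alternative analyses, with an adjusted p = 0.0492 after scaling by the upper quartile and 0.00636 when the 6 total libraries were fitted alone (limma). In polysome mRNA Mnt was at 20.6, 22.7 and 18.7 ppm with DMSO and at 26.8, 30.7 and 20.2 ppm with Torin1, with overlapping groups and a log2 fold of 0.31 ± 0.13 (adjusted p = 0.16, limma). It passed in 2 of 16 alternatives, at 0.48 without polysome Torin1 replicate 3 and at 0.56 with column total scaling.

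Mxd3, on chromosome 13 from 55325170 to 55329900, and Mxd1, on chromosome 6 from 86647044 to 86669234, encode MXD repressors. Mxd3 in total mRNA was at 21.8, 24.6 and 21.3 ppm with DMSO and at 15.4, 18.7 and 18.1 ppm with Torin1. The Torin1 values were all lower, with a log2 fold of -0.38 ± 0.13 (adjusted p = 0.112, limma). Mxd1 was at 10.7, 10.0 and 10.1 ppm with DMSO and at 8.54, 9.33 and 8.54 ppm with Torin1. These too were separate, with a log2 fold of -0.23 ± 0.10 (adjusted p = 0.213, limma). In polysome mRNA both genes had overlapping groups. Mxd3 had a polysome log2 fold of -0.24 ± 0.13 and Mxd1 one of 0.00 ± 0.10 (adjusted p = 0.303 and 1, limma).

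Mxd4 on chromosome 5 from 34176580 to 34187710, Mxi1 on chromosome 19 from 53310128 to 53373293, and Mga on chromosome 2 from 119872503 to 119970129 complete the antagonists. In total mRNA Mxd4 was at 40.9 ± 2.73 ppm with DMSO and 46.1 ± 3.64 ppm with Torin1, a log2 fold of 0.17 ± 0.08 (adjusted p = 0.238, limma). Mxi1 ran from 15.6 to 16.7 ppm with DMSO and from 16.3 to 17.4 ppm with Torin1. Mga was at 33.9 ± 0.156 and 36.3 ± 2.97 ppm. Their log2 folds were 0.08 and 0.10 (adjusted p = 0.63 and 0.765, limma). All 3 had groups that overlapped in both fractions, and in polysome mRNA their log2 folds ran from -0.04 to 0.19.

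**Figure D2:**
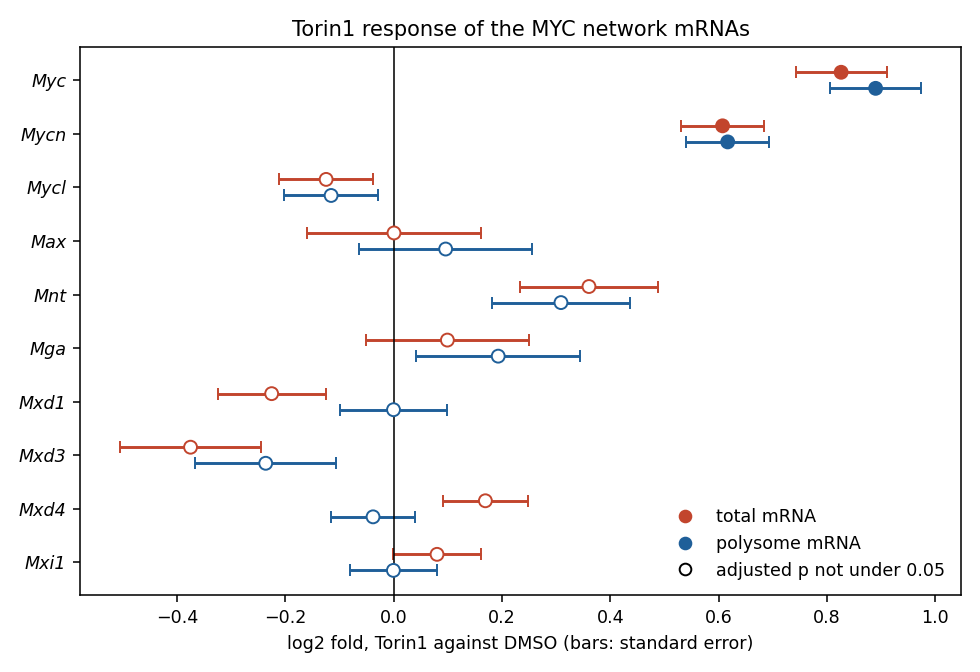
Log2 fold of Torin1 against DMSO for the 10 genes in total (red) and polysome (blue) mRNA. Bars are standard errors of the limma fit and filled points passed the test. Only Myc and Mycn have filled points, at 0.83 and 0.89 and at 0.61 and 0.62.

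The same question in polysome mRNA, the mRNA carrying more than 3 ribosomes, gave 2 of the 10 genes, Myc and Mycn, both higher. Of all genes 10% passed in this comparison and 4.57% passed as higher, and of the expressed genes 16.8% passed. Polysome groups did not overlap for these 2 genes alone among the 10, against 24% of all genes tested. The median log2 fold of the 10 genes was 0.05, beside 0.00 over all genes tested and -0.04 over the expressed genes. Calls for Myc and Mycn in both fractions were kept in all 16 alternative analyses of each comparison, with folds of 0.78 to 1.14 and of 0.55 to 0.86.

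Whether the response differed between fractions was tested as an interaction, the Torin1 fold in polysome mRNA minus that in total mRNA. With limma 0 of the 10 genes passed, and 0 had an unadjusted p under 0.05. Of all genes 0.726% passed, and 0.707% with a lower polysome response. The difference was 0.06 ± 0.12 for Myc and 0.01 ± 0.11 for Mycn on the log2 scale (adjusted p = 1 for both, limma). Mxd4 had the lowest unadjusted p of the 10 genes, 0.0854, with a difference of -0.21 ± 0.11 (adjusted p = 0.926, limma). The tests in total mRNA, in polysome mRNA and of the interaction use the same libraries, so they are not separate evidence.

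The next comparison asks how each mRNA was shared between the polysome fraction and total mRNA. With DMSO 4 of the 10 genes passed, Mga lower in polysome mRNA and Mxd3, Mycl and Mxd4 higher, while 41.1% of all genes passed, 20.6% as higher and 20.5% as lower. With Torin1 4 passed, Mga lower and Mxd3, Max and Mycl higher, beside 39.7% of all genes, 20.4% higher and 19.2% lower. The share called among the 10 genes is thus near that of all genes in both treatments and below that of the expressed genes, 65.9% with DMSO and 64.7% with Torin1. Groups of 6 members did not overlap with DMSO and groups of 4 with Torin1, against 53.2% and 47.1% of all genes. With scaling to the column total alone the median log2 fold of all genes was -0.37 with DMSO and -0.11 with Torin1, in place of -0.03 and -0.02, so small polysome to total differences depend on the scaling.

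Mga, whose product carries a T-box DNA binding domain beside its helix-loop-helix zipper, had the lowest ratio of polysome to total mRNA of the 10 genes. With DMSO it was at 34.0, 33.9 and 33.7 ppm in total mRNA and at 13.2, 11.5 and 9.79 ppm in polysome mRNA. Every polysome library was far below every total library, with a log2 fold of -1.56 ± 0.15 (adjusted p = 6.64e-06, limma). With Torin1 it was at 33.5, 39.4 and 36.1 ppm in total and at 10.2, 13.4 and 16.2 ppm in polysome mRNA, a log2 fold of -1.47 ± 0.15 (adjusted p = 1.16e-05, limma). Of the expressed genes 1.45% had a lower value with DMSO and 1.44% with Torin1. The RefSeq span of Mga is 97627 bases, the longest of the 10 genes.

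Mxd3 stood at the other end. With DMSO it was at 21.8, 24.6 and 21.3 ppm in total mRNA and at 43.9, 40.2 and 52.6 ppm in polysome mRNA, a log2 fold of 1.01 ± 0.13 (adjusted p = 5.78e-05, limma). With Torin1 polysome values of 45.6, 33.6 and 37.1 ppm stood against total values of 15.4, 18.7 and 18.1 ppm, a log2 fold of 1.15 ± 0.13 (adjusted p = 2.4e-05, limma). In both treatments the groups were separate by more than their spread. The RefSeq span of Mxd3 overlaps the end of Prelid1, a mitochondrial lipid transfer gene on chromosome 13 from 55322055 to 55325272, and it is not stated whether reads were counted by strand. Prelid1 was at 195 to 373 ppm over the 12 libraries, with a polysome to total log2 fold of 0.72 with DMSO and 0.57 with Torin1. Its part in the Mxd3 values was not tested. Prelid1 had a log2 fold with Torin1 of -0.07 in total and -0.22 in polysome mRNA, neither of which passed.

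Mycl was the activator with more mRNA in the polysome fraction. With DMSO it was at 33.6 ± 3.00 ppm in total and 43.1 ± 1.89 ppm in polysome mRNA, a log2 fold of 0.36 ± 0.09 (adjusted p = 0.00513, limma), and with Torin1 the fold was 0.37 ± 0.09 (adjusted p = 0.00459, limma). Both calls were lost with column total scaling, where the folds were -0.01 with DMSO and 0.27 with Torin1. Myc and Mycn did not pass in either treatment, with log2 folds of -0.15 and -0.09 with DMSO and of -0.09 and -0.08 with Torin1. With column total scaling both passed as lower with DMSO, at -0.53 and -0.46.

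Max was higher in polysome mRNA with Torin1, by a log2 fold of 0.52 ± 0.16 (adjusted p = 0.0211, limma), although the groups overlapped. That call was lost without total Torin1 replicate 1, without total Torin1 replicate 2 or without polysome Torin1 replicate 1, the library at 142 ppm. It was also lost with column total scaling, at 0.42, and with the compared groups fitted alone. Over the 6 omissions the fold ran from 0.31 to 0.67. With DMSO the groups of Max did not overlap and the fold was 0.42 ± 0.16 (adjusted p = 0.0517, limma), which passed in 3 of 17 alternatives and was 0.05 with column total scaling. Mxd4 passed with DMSO alone, from 40.9 ± 2.73 to 49.1 ± 3.06 ppm, a log2 fold of 0.26 ± 0.08 (adjusted p = 0.0172, limma). This call was lost without total DMSO replicate 1, total DMSO replicate 3 or polysome DMSO replicate 1. Its Torin1 fold was 0.05 ± 0.08 (adjusted p = 0.632, limma), and the difference between treatments is the interaction given above, which did not pass. Mnt, Mxd1 and Mxi1 passed in neither treatment, but with column total scaling all 3 passed as lower with DMSO, at -0.62, -0.39 and -0.39. Mnt also passed as lower with DMSO when the compared groups were fitted alone, and with Torin1 in 3 of 17 alternatives: upper quartile scaling, the replicate block (adjusted p = 0.0495, limma) and without polysome Torin1 replicate 2.

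**Figure D3:**
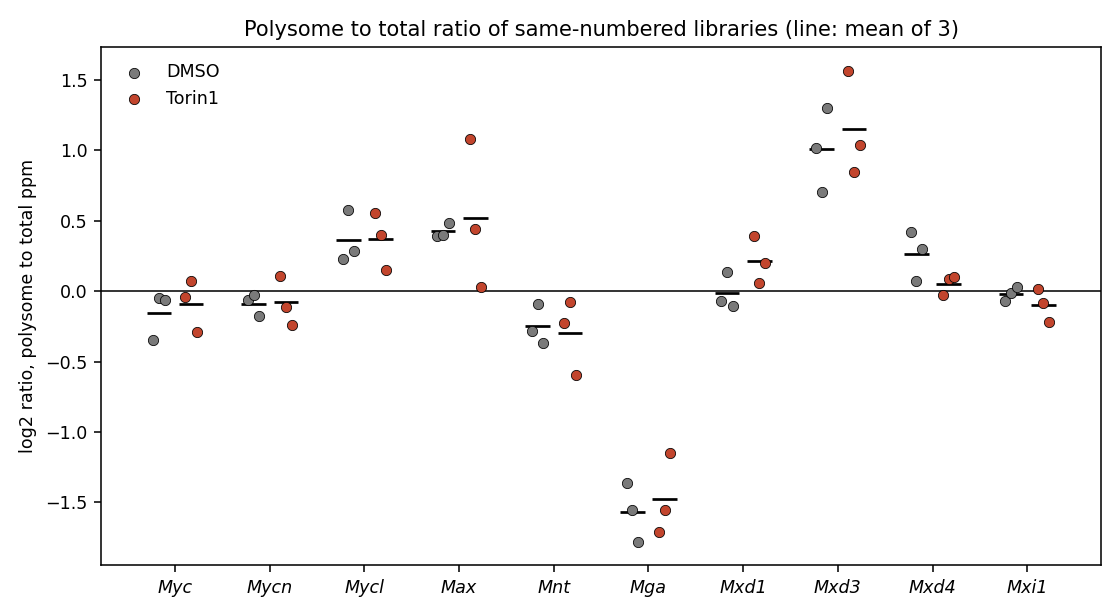
Log2 ratio of polysome to total abundance for libraries of the same replicate number, with DMSO (grey) and Torin1 (red). Points are number-matched libraries, which the labels do not tie to a common lysate, and lines the mean of 3. Mga lies below 0 and Mxd3 above 0 at every point, and the single high point of Max is Torin1 replicate 1.

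Genes around the network were taken from lists of its partners, cofactors and classic targets. Their Torin1 folds are read beside the shares of all genes that passed as lower, 4.35% in total and 5.45% in polysome mRNA, or as higher, given above. Most list genes are expressed genes, which passed more often, 11.8% in total and 16.8% in polysome mRNA in either direction. Against all genes in either direction these were 7.4% and 10%. The shares of all genes are thus a low background for these lists. MLX is a MAX-like protein that pairs with the nutrient-sensing factors MondoA (gene Mlxip) and ChREBP (gene Mlxipl). Mlxip fell in total mRNA from 17.3 ± 0.524 to 12.5 ± 1.12 ppm, a log2 fold of -0.47 ± 0.10 (adjusted p = 0.0169, limma), and in polysome mRNA by 0.44 on the log2 scale (adjusted p = 0.0176, limma). Mlx passed as lower in polysome mRNA, at -0.34 ± 0.08 (adjusted p = 0.0232, limma), with -0.01 in total mRNA. The total call for Mlxip was lost without DMSO replicate 1, DMSO replicate 3, Torin1 replicate 1 or Torin1 replicate 3, and its polysome call without DMSO replicate 2 or DMSO replicate 3. The call for Mlx was lost without polysome DMSO replicate 1, DMSO replicate 3 or Torin1 replicate 2, and all these calls were lost with column total scaling. Mlxipl was at 0.195 ± 0.189 ppm in total DMSO and did not pass in either fraction. The MondoA targets Txnip, Arrdc4 and Klf10 did not pass either, with total log2 folds of -0.31, -0.01 and 0.27 (adjusted p = 0.199, 0.973 and 0.23, limma).

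The SIN3 corepressor, which MXD proteins and MNT recruit, had 3 of 11 genes lower and 0 higher in total mRNA, with a median log2 fold of -0.11. In polysome mRNA 2 of 11 were lower. Sin3a, its scaffold, fell from 33.0 ± 2.78 to 23.0 ± 0.348 ppm in total mRNA, a log2 fold of -0.52 ± 0.10 (adjusted p = 0.00839, limma), and by 0.58 on the log2 scale in polysome mRNA (adjusted p = 0.00279, limma). The histone deacetylase gene Hdac1 had -0.26 and -0.23, and the histone-binding gene Rbbp7 had -0.29 in total mRNA. With any 1 of the 6 total libraries left out Sin3a alone was called in total mRNA, and the polysome count was 1 in each omission except that of Torin1 replicate 3, where it was 3.

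Of 10 other genes of the MGA-containing Polycomb complex, 4 were lower and 0 higher in total mRNA, with a median log2 fold of -0.27, and 2 were lower in polysome mRNA. L3mbtl2, a chromatin-binding subunit, fell from 18.4 ± 0.257 to 12.5 ± 0.459 ppm in total mRNA, a log2 fold of -0.56 ± 0.08 (adjusted p = 0.00145, limma). E2f6, the repressive E2F of this complex, fell from 36.8 ± 1.58 to 26.2 ± 0.998 ppm, a log2 fold of -0.49 ± 0.07 (adjusted p = 0.00174, limma). Both also passed in polysome mRNA, at -0.40 and -0.38, and both calls held whichever of the 6 compared libraries was left out. Tfdp1, the E2F dimer partner gene, had -0.29 in total mRNA, and Wdr5, a histone methylation subunit gene, had -0.25. Wdr5 falls outside the rule for named genes and was picked on its values. The count of 4 was 2, Tfdp1 no longer among them, without total DMSO replicate 1, total Torin1 replicate 2 or total Torin1 replicate 3. Mga itself, as given above, did not pass.

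Among 17 coactivators of MYC, 1 was lower in total mRNA, the chromatin remodeller subunit gene Actl6a at -0.28 ± 0.06 (adjusted p = 0.011, limma). That call was lost without total Torin1 replicate 3. In polysome mRNA Actl6a was lower, at -0.23, and Supt5, an elongation factor gene, higher at 0.34 ± 0.09 (adjusted p = 0.0278, limma). The polysome call for Actl6a was lost without DMSO replicate 1, DMSO replicate 2 or Torin1 replicate 2, and that for Supt5 without DMSO replicate 1, DMSO replicate 3, Torin1 replicate 1 or Torin1 replicate 2. Among 17 genes of MYC protein turnover 4 were lower and 0 higher in total mRNA. Axin1, a scaffold for GSK3, fell from 30.6 ± 1.95 to 21.1 ± 0.484 ppm in total mRNA, a log2 fold of -0.54 ± 0.10 (adjusted p = 0.00624, limma). Skp2, a ubiquitin ligase subunit gene, had -0.29 in total and -0.29 in polysome mRNA, both passing, and the kinase gene Aurka had -0.26 in total mRNA. The phosphatase gene Ppp2ca, also picked on its values, had -0.23 in total mRNA. Of the total calls Axin1 alone held in all omissions, and the count was 1 without any of the 6 total libraries except Torin1 replicate 1, where it was 2. In polysome mRNA 3 of the 17 were lower and 0 higher, and the lower count ran from 1 to 4 over the omissions. Axin1 had -0.52 ± 0.10 there (adjusted p = 0.0048, limma), a call kept in all 6 omissions. It was lost with column total scaling and with the 6 polysome libraries fitted alone. The polysome call for Skp2 was lost without DMSO replicate 2, DMSO replicate 3 or Torin1 replicate 3.

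Of 42 genes that MYC classically activates, mostly of ribosome biogenesis, nucleotide synthesis and metabolism, 1 was higher and 3 lower in total mRNA. In polysome mRNA 5 were higher and 2 lower. Of the expressed genes 11.8% passed in total and 16.8% in polysome mRNA, in either direction, and these counts are near those shares. The median log2 fold of the list was -0.13 in total and -0.04 in polysome mRNA, beside -0.06 and -0.04 over the expressed genes. The total counts were 3 higher and 10 lower when the 6 total libraries were fitted alone. The nucleolar genes Nolc1 and Nop56 and the tRNA synthetase scaffold gene Aimp2 were lower in total mRNA, by 0.47, 0.32 and 0.37 on the log2 scale, and these calls held in all 6 omissions. Mybbp1a, a nucleolar gene, was higher in polysome mRNA at 0.57 ± 0.09 (adjusted p = 0.00162, limma), as were the pyrimidine synthesis gene Cad at 0.49 and the RNA polymerase I subunit gene Polr1b at 0.40. Odc1, the rate-limiting enzyme gene of polyamine synthesis, passed at 0.25 in total and 0.24 in polysome mRNA, and the ribosome biogenesis gene Rrp12 at 0.36 in polysome mRNA, and both were picked on their values. Nolc1 and Nop56 were the lower genes in polysome mRNA, at -0.32 and -0.25. With any 1 total library left out the counts were 0 higher and 3 lower in total mRNA. In polysome mRNA the counts depended on single libraries, with 1 higher and 0 lower without DMSO replicate 1, 1 and 1 without DMSO replicate 3, 2 and 3 without Torin1 replicate 1, 1 and 2 without Torin1 replicate 2, 5 and 3 without DMSO replicate 2, and 5 and 8 without Torin1 replicate 3.

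Of 11 genes that MYC classically represses, 4 were higher and 0 lower in both total and polysome mRNA. Ndrg1, a stress and differentiation gene, rose from 102 ± 2.89 to 145 ± 3.75 ppm in total mRNA, a log2 fold of 0.51 ± 0.09 (adjusted p = 0.00457, limma), and by 0.63 in polysome mRNA. Gadd45g, which is also on the list of intermediate progenitor markers, rose from 63.0 ± 1.09 to 88.0 ± 1.91 ppm, a log2 fold of 0.48 ± 0.06 (adjusted p = 0.000893, limma). Cdkn2b, a cyclin-dependent kinase inhibitor gene, rose from 2.87 ± 0.638 to 5.13 ± 1.07 ppm, by 0.83 ± 0.19 on the log2 scale (adjusted p = 0.0217, limma). Cdkn1b, another such inhibitor gene, likewise picked on its values, had 0.31 in total and 0.45 in polysome mRNA, and its total call was lost in each of the 6 omissions. The total count was 2 and Cdkn2b was not called without DMSO replicate 1, DMSO replicate 2, Torin1 replicate 1 or Torin1 replicate 3, while the polysome count was 4 in every omission. The other 7 of the 11 genes did not pass in either fraction, and in total mRNA Ndrg2, Cdkn2c and Cdkn1a had log2 folds of -0.24, -0.17 and -0.16.

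Among 9 other E-box factors of the helix-loop-helix zipper class, Usf1 and Tfeb were lower in polysome mRNA. Usf1, a ubiquitous E-box factor, had a polysome log2 fold of -0.46 ± 0.09 (adjusted p = 0.00754, limma), a call lost with column total scaling, at -0.21, and with the 6 polysome libraries fitted alone. Tfeb, the lysosomal gene regulator, had -1.25 ± 0.36 from 1.38 ± 0.0511 ppm (adjusted p = 0.0481, limma), and that call was lost in each of the 6 omissions. In total mRNA their log2 folds of -0.27 and -1.28 did not pass (adjusted p = 0.0953 and 0.0528, limma).

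In polysome mRNA these list counts depended on which libraries were fitted. With the 6 polysome libraries alone, 0 genes of the SIN3, Polycomb, coactivator, turnover and activated lists passed, and 2 of the repressed list did. With column total scaling, under which the median of all genes was 0.23 in this comparison, 0 genes of those 5 lists were lower. Then 3 SIN3, 0 Polycomb, 3 coactivator, 1 turnover and 10 activated genes were higher, and the list medians were 0.06, 0.08, 0.24, 0.19 and 0.21.

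**Figure D4:**
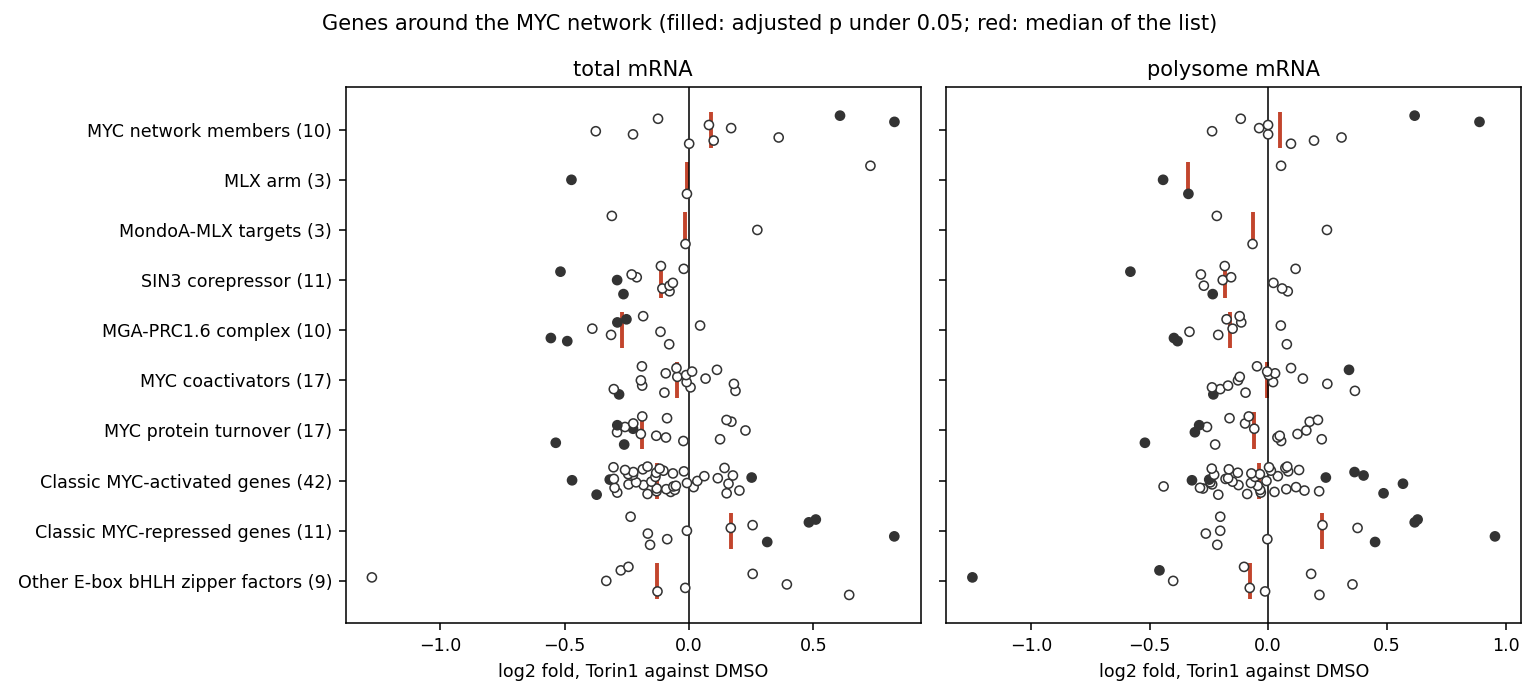
Log2 fold of Torin1 against DMSO for the 10 genes and the lists around them, in total mRNA (left) and polysome mRNA (right). Each point is a gene, filled where it passed the test, and red bars are list medians. The 4 filled points of the repressed list lie above 0 in both panels, and the filled points of the SIN3 and Polycomb lists lie below 0, which in polysome mRNA did not hold with column total scaling.

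Cell type markers of some lists moved in the same libraries. Of the 5 microglia and 5 red cell markers 0 passed in total mRNA, and their total sums overlapped between treatments. These were 3.96 to 7.76 ppm with DMSO and 5.55 to 6.74 ppm with Torin1 for microglia markers. For red cell markers they were 991 to 1070 and 1060 to 1250 ppm. In polysome mRNA the red cell marker Hba-x was higher, at 0.55 (adjusted p = 0.0407, limma). The 5 intermediate progenitor markers, Eomes, Neurog2, Btg2, Gadd45g and Insm1, passed as higher in both fractions, 4 or 5 of them with any 1 library left out, but 3 in total mRNA with column total scaling and 2 in polysome mRNA with its 6 libraries fitted alone, and their summed level was 239 to 247 ppm in total DMSO and 354 to 360 ppm in total Torin1, with 0 of 5 at 0. Of 4 mural and meningeal markers the collagen genes Col1a1, Col1a2 and Col3a1 were higher in total mRNA. That count of 3 was 1 without total DMSO replicate 1 or total Torin1 replicate 3 and 2 in the other 4 omissions. The remaining marker, Pdgfrb, did not pass, with log2 folds of -0.17 in total and -0.20 in polysome mRNA. In total mRNA the sum of all 4 was 17.7 to 23.7 ppm with DMSO and 33.8 to 42.2 ppm with Torin1. Of 8 radial glia markers Sox2, Vim and Hes1 were higher in total mRNA. Tbr1, 1 of 6 neuron markers, and Dlx5, 1 of 5 interneuron markers, also passed as higher in total mRNA. So did Cldn5, 1 of 4 endothelial markers, and Olig2, 1 of 6 oligodendrocyte lineage and astrocyte markers. No other marker of these lists passed there. Among the other neuron markers Tubb3 had a total log2 fold of -0.10, and Dcx, Neurod6, Bcl11b and Map2 ran from 0.12 to 0.29. With 1 total library left out Tbr1 and Cldn5 were never called, and of the interneuron and oligodendrocyte lists 0 or 1 gene was. Summed levels in total mRNA did not overlap for these lists either, at 9.66 to 10.3 ppm with DMSO and 13.7 to 14.4 ppm with Torin1 for endothelial markers, and 181 to 189 and 213 to 223 ppm for interneuron markers. Oligodendrocyte lineage and astrocyte markers summed to 63.2 ppm in each total DMSO library and to 75.2 to 80.9 ppm with Torin1. Most of that sum was Olig2 and Aldh1l1, with means of 45.2 and 15.3 ppm in total DMSO. There 3 of the 6 were under 1 ppm, Sox10, Aqp4 and Gfap, at 0.242, 0.217 and 0.29 ppm. The 5 cycling cell markers summed to 575 to 610 ppm in total DMSO and 530 to 550 ppm in total Torin1. In total mRNA 0 of these 5 passed. Pcna and Mcm2 had total log2 folds of -0.30 and -0.17, while Mki67, Top2a and Ccnb1 had 0.03, 0.08 and 0.01. In polysome mRNA Top2a passed as higher, at 0.74 ± 0.12 (adjusted p = 0.00218, limma). Sox2, Hes1, Hes5, Tbr1, Dlx5, Cldn5, Aldh1l1, Col1a1 and Col1a2 also passed as higher there, while Vim, Col3a1 and Olig2 did not. Under some other settings the polysome count was 0 for the radial glia, neuron, interneuron, endothelial and oligodendrocyte lists. For the mural and meningeal list it was 2 or 3. Across these marker lists 0 markers were at 0. The part of these markers' cells in the Myc and Mycn values was not tested.

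The mRNAs most like those of Myc, Mycn, Mxd3 and Mnt over the 12 libraries were found among 8803 expressed genes by Pearson's r of the log2 values, as a description, since all points share the 4 groups. For Myc they were Bhlhe22, a helix-loop-helix factor of cortical neurons (r = 0.988), Dusp6, an ERK phosphatase (r = 0.986), and Btg1, an antiproliferative gene (r = 0.98). For Mycn they were Dusp6 (r = 0.992), Myc (r = 0.976) and Spry1, an inhibitor of receptor tyrosine kinase signalling (r = 0.976). For Mxd3, which with Mnt came next by adjusted p for Torin1 against DMSO in either fraction, they were Brms1 (r = 0.993), Sh3glb2 (r = 0.993) and Diablo (r = 0.988), and for Mnt Sox21 (r = 0.971), Gpc4 (r = 0.959) and Tnpo2 (r = 0.953). In total mRNA the Torin1 log2 folds of Bhlhe22, Dusp6, Btg1 and Spry1 were 1.01, 0.57, 0.75 and 1.25.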

How the data were processed

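RNA from 12 libraries was sequenced, and the titles gave the groups. STAR 2.7.9a, HTSeq 0.6.0 and mm10 are listed, without roles, in the submitters' processing notes. The deposited signal was already scaled, and no source used here states how the authors did so. In every library 99.747% to 100% of its nonzero values were whole multiples, to within 0.011, of 1 step tied to the column total, so it is not a table of read counts. Columns of other samples numbered 0.

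Libraries were scaled to their totals, then by a trimmed mean of log ratios without weights (shares of 0.3 and 0.05 trimmed). Testing required a deposited value of 1 or above in 3 libraries. limma 3.58.1 (R 4.3.3) with a variance trend was fitted to log2(value + 1) in all 12 libraries with 4 group means, for 5 comparisons. The fit was also run on simulated data. Noise there was independent for each gene and library, so effects shared within a library or lysate were not covered. Alternatives were other scalings, filters, a pseudocount of 0.1, the compared groups alone, a replicate block and each library left out. For polysome against total mRNA and the interaction, the differences of same-numbered libraries were also fitted.

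All 10 genes are named. From each list the 3 passing genes with the largest folds in each fraction are named (the most abundant where none passed), with lists of 3 in full, and the 3 genes closest to each of the 4 members with the lowest adjusted p for Torin1 against DMSO in either fraction. A gene that the rule would name is not reported here. Genes, lists, motifs and ratios were chosen with earlier results of these data known, and the printed promoters, percentiles and ratios after the values were seen.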

Additional observations from a re-analysis of the deposited data

How the results depend on the processing

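Myc and Mycn passed in all 16 alternatives of both Torin1 comparisons, and Mga and Mxd3 in all 17 of both polysome to total comparisons. With 1 library left out the count of the 10 genes called stayed at 2 in total mRNA and at 0 in the interaction, and ran from 2 to 3 in polysome mRNA, from 3 to 4 for polysome against total with DMSO and from 3 to 5 with Torin1. With column total scaling those last 2 counts were 7 and 2, in place of 4 and 4, and the whole table had 841 and 3240 genes called in total and polysome mRNA in place of 1498 and 2027. Under that scaling the median of all genes was -0.03 in total and 0.23 in polysome mRNA and 0.29 in the interaction, in place of -0.01, 0.00 and 0.03. The 6 polysome libraries fitted alone gave 433 genes. The replicate block kept the calls of Myc and Mycn in both fractions, with a log2 fold of 0.83 for Myc in total mRNA (adjusted p = 0.00166, limma). Same-numbered libraries had deviations correlated from -0.24 to 0.218, not every library was closest to its own number, and the labels do not say what a number marks. The trimmed mean was run over all genes above 0 and over the tested genes, and results of the 10 genes were seen under both before the first was kept. This alternative, the filter at 1 ppm and the runs on list genes were added after seeing the data. Depth in reads is unknown.

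The following log2 folds changed sign, and except for Mycl and Mxd4 (polysome against total, DMSO) and Hdac1 and Actl6a (polysome mRNA) none of them had passed. With column total scaling Max was at -0.0241 in total mRNA. In polysome mRNA that scaling gave Mycl 0.131, Mxd1 0.245, Mxd3 0.01, Mxd4 0.208, Mxi1 0.245, Txnip 0.0294, Arrdc4 0.18, Rbbp7 0.0551, Hdac1 0.0128, Tfdp1 0.133, Actl6a 0.0156, Aurka 0.023 and Aimp2 0.0362. In the interaction it gave Mnt 0.219, Mxd4 0.0636 and Mxi1 0.19. For polysome against total it gave Mycl -0.0136 and Mxd4 -0.112 with DMSO, and Mxd4 -0.0486 with Torin1. With the upper quartile, polysome folds were 0.0334 for Mxd1 and 0.0333 for Mxi1, interactions were -0.0325 for Mycn and -0.0327 for Mycl, Mxd4 was at -0.0311 for polysome against total with Torin1, and total folds were 0.0673 for Mlx and 0.0612 for Arrdc4. With the median of ratios, interactions were -0.0137 for Mycn and -0.014 for Mycl, and Mlx was at 0.00471 in total mRNA. With the trimmed mean over the tested genes Max was at -0.0013 in total mRNA, and Mxd1 and Mxi1 at 0.00573 and 0.00554 in polysome mRNA. With a pseudocount of 0.1 Mlxipl was at -0.461 in polysome mRNA.

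With 1 library left out, total folds ran from -0.157 to 0.0759 for Max, from -0.0671 to 0.0762 for Mlx and from -0.115 to 0.0384 for Arrdc4. Polysome folds ran from -0.112 to 0.22 for Max, from -0.0678 to 0.0573 for Mxd1, from -0.0822 to 0.0074 for Mxd4, from -0.0448 to 0.0556 for Mxi1, from -0.167 to 0.0343 for Arrdc4 and from -0.433 to 0.412 for Mlxipl. Interactions ran from -0.112 to 0.258 for Max, from -0.0629 to 0.27 for Mga, from -0.176 to 0.117 for Mnt, from -0.0496 to 0.0877 for Mycl and from -0.0609 to 0.0712 for Mycn. For polysome against total with DMSO they ran from -0.0698 to 0.0471 for Mxd1 and from -0.0508 to 0.0277 for Mxi1. The cause of these changes was not tested.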
